A study of Homo sapiens with 54 samples.

Results

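Gene expression was compared between 8 h and 36 h of culture with calcitriol, the hormonal form of vitamin D, in 4 lymphoblastoid cell lines. These lines, GM07019, GM07348, GM10854 and GM12878, are human B cells immortalised with Epstein-Barr virus. The arrays were chosen by cell line and time, 16 of the 54 arrays of the series, with 2 arrays for each line at each time. Each such pair of arrays was averaged and each line counted once, so that 4 averages at 8 h were compared with 4 at 36 h, paired by line. All 16 arrays carry calcitriol. The 8 arrays of the same lines at 0 h, without calcitriol, served as the starting level, and 20 arrays of 5 other lines at 8 h and 36 h served as a comparison. Those 5 are HEP-G2 from a liver tumour, the myeloid leukaemia lines K562 and HL60, and the fibroblasts Ag09319 and Ag09309. The sources used here do not state the dose. No culture was analysed here that went without calcitriol to 8 h or 36 h, so the time with calcitriol and the time in culture cannot be told apart. The sample titles of GM10854 name another line, and its cell line field was used. The titles of GM12878 follow another style than those of the other 3 lines, and this style cannot be told apart from the line.

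Calcitriol binds the vitamin D receptor, VDR, which pairs with a retinoid X receptor on DNA and raises the transcription of genes near its sites. One of these genes encodes CYP24A1, the enzyme that starts the breakdown of calcitriol, so the hormone feeds back on its own level. In B cells, calcitriol is known for raising CD38 and for acting on growth and on the path to antibody secretion. Genes that rise early can act on others later, and a comparison of a late with an early time shows both continued and newly begun changes.

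Values are log2 RMA values, so that a difference of 1 is a doubling, and each change is the mean of the 4 lines with its standard error after the ± sign. The array medians of the 16 arrays ran from 5.1 to 5.27, and the arrays of a pair correlated at 0.981 to 0.991 over the probe sets tested. Levels well below the medians may lie within background, and a change from such a level is not an exact fold. The replicate labels say nothing of how cultures were kept, so each p-value reflects the spread of these samples alone, which may be technical within a line, and 4 lines limit the precision. In such bulk RNA, more cells of a kind and more RNA per cell cannot be told apart. The 11 B cell markers measured had 8 h means from 5.72 to 9.76 with a median of 7.38. Among the higher ones were MS4A1 at 9.76, FCER2 at 9.32, PAX5 at 8.26 and CD79A at 8.04.

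Late in the time course nearly every change that passed the test was a rise. Of 19460 probe sets, 54 were higher at 36 h than at 8 h, which is 0.277% of those tested, and 1 was lower, 0.00514% (limma, adjusted p below 0.05). At an unadjusted p below 0.05 there were 936 higher and 615 lower, where chance gives 973 in all. The 54 rises ran from 0.38 to 1.66 with a median of 0.53, and 4 of them exceeded a doubling. The leading genes were STS, a steroid-processing enzyme, CD38, an NAD-consuming enzyme of the cell surface, CAMP, an antimicrobial peptide, and CD79A, a signalling chain of the B cell receptor. All 54 were higher in 4 of 4 lines, which held for 10.3% of all probe sets. In 25 of them every line at 36 h lay above every line at 8 h, a separation found in either direction in 2.87% of all probe sets. The 54 were chosen by a comparison of these same averages, which favours such agreement, so both shares are a description. The median change over all probe sets was 0.000835.

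The number of calls depended strongly on the arrays and on the scaling. It was 11 higher and 0 lower without GM10854, 16 and 0 without GM12878, 31 and 0 without GM07019, and 33 and 2 without GM07348. With the first arrays left out 5 were higher and 0 lower, with the second left out 112 and 34, and after quantile normalization 18 and 1. Among the alternatives run, all 55 kept their direction. Leaving out a line could not reverse any of them, since all 4 lines shared that direction in each. Arrays as replicates, filters and another variance model leave the mean change as it was, so they could not reverse it either. A fit over all 9 lines called 3 higher. The 8 genes that passed whichever line was left out were STS, CD38, CD79A, CYP24A1, CCL4, CD69, MYRF and INSIG1, and STS and CD79A passed under every alternative that tested them.

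**Figure D1:**
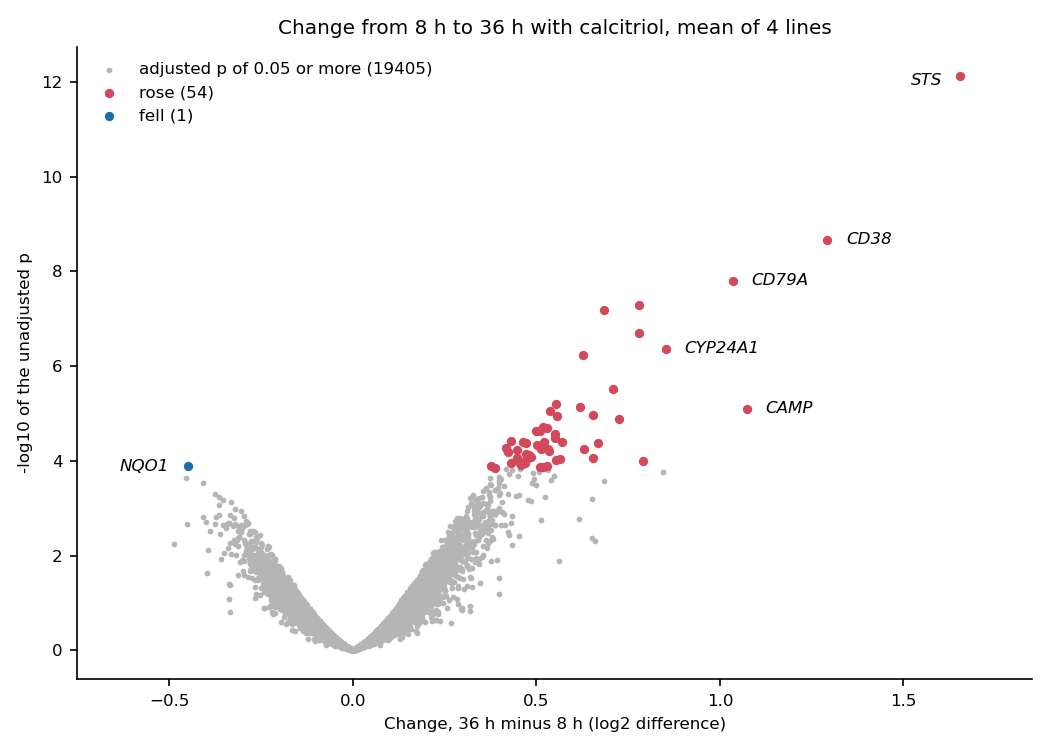
Change from 8 h to 36 h with calcitriol (log2 difference, horizontal) against the -log10 of the unadjusted p (vertical) for 19460 probe sets, as means of 4 lymphoblastoid lines. Red points mark the 54 that rose and the blue point the 1 that fell, with STS at 1.66 and CD38 at 1.29 farthest to the right.

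STS encodes steroid sulfatase, which removes the sulfate from inactive steroids such as oestrone sulfate. At 8 h GM07019 stood at 5.29, GM07348 at 4.63, GM10854 at 5.16 and GM12878 at 5.14. At 36 h the same lines stood at 6.90, 6.57, 6.65 and 6.72. Every line rose past the highest 8 h array, 5.53. The lowest 36 h array read 6.49. The mean change was 1.66 ± 0.09, a 3.15-fold rise (limma, adjusted p = 1.44e-08), against 0.32 ± 0.09 from 0 h to 8 h (adjusted p = 0.914).

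CD38 makes cyclic ADP-ribose from NAD and marks activated B cells and plasma cells. The 8 h level of GM07019 was 6.33, that of GM07348 6.09, that of GM10854 7.65 and that of GM12878 7.24. At 36 h the values were 7.85, 7.69, 8.39 and 8.55. GM10854 had the highest level at 8 h and the smallest late rise, 0.74, while the other lines rose by 1.31 to 1.59. The mean change was 1.29 ± 0.12 (2.45-fold, adjusted p = 2.1e-05). CD38 had also risen by 0.78 ± 0.12 from 0 h to 8 h (adjusted p = 0.0271), so its rise was spread over both intervals.

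CYP24A1 stood low throughout. Its 8 h values were 3.63, 3.56, 3.49 and 3.28 in GM07019, GM07348, GM10854 and GM12878, and the 36 h values 4.74, 4.27, 4.20 and 4.16. All of these lie below the lowest array median, although no line at 36 h overlapped one at 8 h. The change was 0.85 ± 0.11 (1.81-fold, adjusted p = 0.00119), largest in GM07019 at 1.10.

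CAMP, the gene of the antimicrobial peptide cathelicidin and a known target of VDR in humans, stood at 6.07, 6.56, 6.10 and 6.23 at 8 h in the same order of lines. At 36 h it stood at 7.09, 7.95, 6.86 and 7.35. The groups did not overlap, and GM07348 was the highest at both times. The change of 1.07 ± 0.17 (adjusted p = 0.013) followed 0.54 ± 0.17 from 0 h to 8 h, which did not pass (adjusted p = 0.9997). Without GM12878 the late change had an adjusted p of 0.11.

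CD79A carries the signalling motif of the B cell receptor together with CD79B. It rose from 8.53, 7.46, 8.63 and 7.54 at 8 h to 9.46, 8.86, 9.29 and 8.69 at 36 h. GM07348 and GM12878 started about 1 unit lower than the others and rose more, by 1.40 and 1.15 against 0.93 and 0.66. The mean was 1.03 ± 0.11 (2.05-fold, adjusted p = 0.000102).

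**Figure D2:**
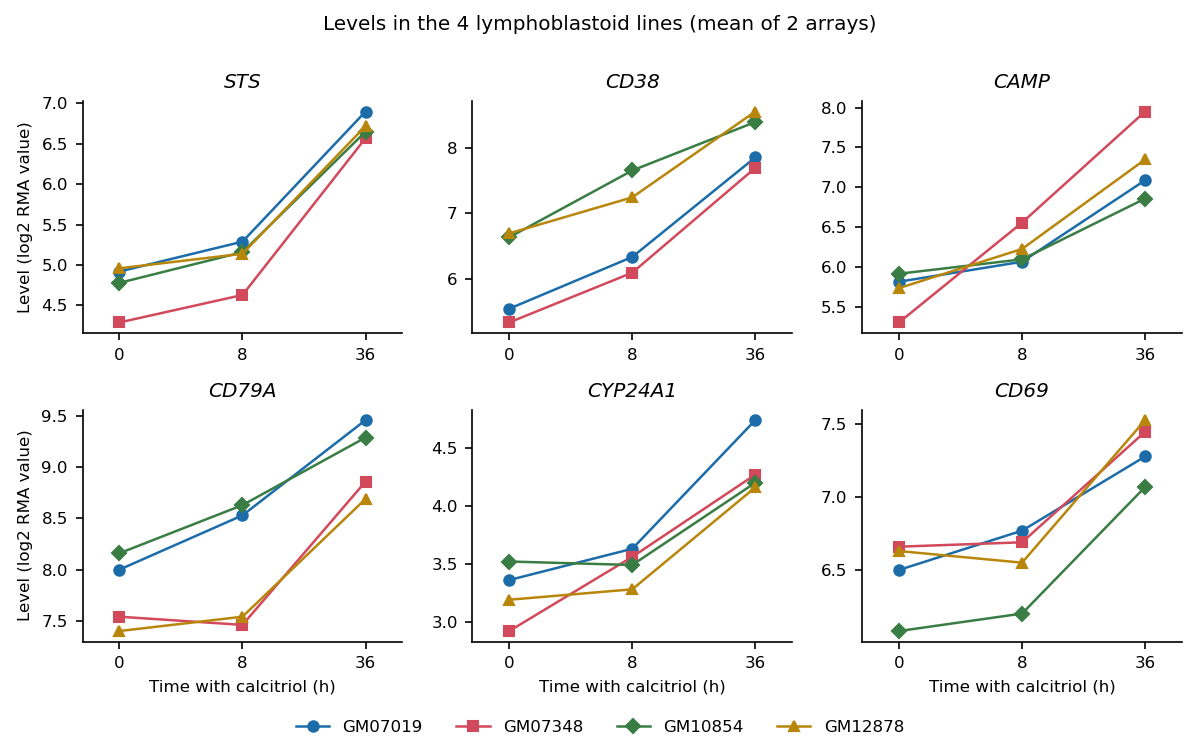
Level (log2 RMA value, vertical) of STS, CD38, CAMP, CD79A, CYP24A1 and CD69 at 0, 8 and 36 h (horizontal, not to scale), with 1 coloured line for each lymphoblastoid line and each point the mean of 2 arrays. In all 6 panels every line was higher at 36 h than at 8 h, and CD38 had also risen from 0 h to 8 h in each line.

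Of the 32 vitamin D response genes on a list of genes known to answer calcitriol in some tissue, 7 rose and 0 fell, beside 0.277% of all probe sets that rose. Their median change was 0.17, beside 0.000835 over all probe sets. The list was drawn up with earlier results of these data known, so its count is no independent evidence. Besides STS, CD38, CAMP and CYP24A1 the rises were MYRF, CLMN and NFKBIA. MYRF, a transcription factor that drives myelination, rose by 0.68 ± 0.08 (adjusted p = 0.000249). Its 8 h values of 5.74, 5.20, 5.68 and 5.52 became 6.40, 6.02, 6.27 and 6.19, without overlap. CLMN, the membrane protein calmin, rose by 0.51 ± 0.09 (adjusted p = 0.0228) after 0.65 ± 0.09 from 0 h to 8 h (adjusted p = 0.0232). Values just short of the threshold were 0.43 ± 0.09 for the acyl-CoA synthetase ACSL1 (adjusted p = 0.0514) and 0.40 ± 0.09 for the protease inhibitor SERPINB1 (adjusted p = 0.0638). The lowest value on the list was -0.36 ± 0.11 for the plasma protein gene ORM1 (adjusted p = 0.245). The monocyte marker CD14 had -0.19 ± 0.08 and the calcium transport gene TRPV6 -0.18 ± 0.10, and neither passed.

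Among 12 genes of the receptor and of vitamin D metabolism, CYP24A1 alone passed. VDR itself changed by 0.14 ± 0.09 (adjusted p = 0.752) after 0.45 ± 0.09 in the first 8 h (adjusted p = 0.161). The partner RXRA had 0.02 ± 0.08 and CYP27B1, the enzyme that makes calcitriol, 0.05 ± 0.09.

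The B cell receptor and its co-receptors had 2 rises among 17 members, CD79A and CR2, beside 0.277% of all probe sets. The median of the list was 0.07. CR2, also called CD21, binds complement fragments and is the receptor that Epstein-Barr virus uses. It stood at 6.11, 5.65, 5.25 and 5.86 at 8 h and at 6.63, 6.42, 6.21 and 6.45 at 36 h, so that GM10854, lowest at 8 h, rose most. Its change was 0.71 ± 0.11 (adjusted p = 0.00661), with an adjusted p of 0.0519 without GM10854. CD40, the receptor for T cell help, had 0.46 ± 0.09 (adjusted p = 0.0505) and CD22, an inhibitory co-receptor, 0.31 ± 0.10 (adjusted p = 0.316). CD79B, the partner of CD79A, had 0.04. CD69, an early activation marker of lymphocytes, rose by 0.78 ± 0.09 (adjusted p = 0.000249). Its 8 h levels of 6.77, 6.69, 6.20 and 6.55 became 7.28, 7.45, 7.07 and 7.53, and the groups did not overlap.

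Of 20 plasma cell genes 3 rose, CD38, TNFRSF17 and ITM2C, beside 0.277% of all probe sets, and the median of the list was 0.10. TNFRSF17 is BCMA, the receptor that sustains plasma cells. It stood at 8.01 at 8 h and 8.56 at 36 h, a change of 0.55 ± 0.10 (adjusted p = 0.0247). The rise was 0.96 in GM12878 and 0.38 to 0.45 in the other lines, and without GM12878 the adjusted p was 0.293. ITM2C, a membrane protein of antibody-secreting cells, rose by 0.55 ± 0.10 (adjusted p = 0.0296), by 0.90 in GM12878 and 0.16 in GM10854. It too lost its call without GM12878, at an adjusted p of 0.339. The regulators of the plasma cell programme did not pass, with 0.21 ± 0.10 for XBP1, 0.11 ± 0.09 for PRDM1 and -0.05 ± 0.09 for IRF4. IGKC, the kappa light chain constant region, passed on 1 probe set at 0.53 ± 0.11 (adjusted p = 0.0491), while none of the 12 other probe sets annotated to it passed and 4 of those were higher in 4 of 4 lines. Immunoglobulin segments are alike in sequence, so these signals are uncertain. Of 14 B cell transcription factors 0 passed, and the largest values were 0.31 ± 0.09 for PAX5 (adjusted p = 0.208) and 0.29 ± 0.08 for IRF8 (adjusted p = 0.226).

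Interferon-stimulated genes formed the largest group among the rises. They encode sensors and effectors against viral RNA, and cells switch them on through STAT and IRF factors that bind an interferon response element near the start site. Of 28 measured, 9 rose and 0 fell, beside 0.277% of all probe sets. Their median was 0.37 beside 0.000835, and 24 of the 28 were higher in 4 of 4 lines, beside 10.3% of all. From 0 h to 8 h their median was 0.00526. The calls rested on several lines, since 0 of the 28 passed without GM10854, 2 without GM07019, 4 without GM07348 and 6 without GM12878, and 2 passed after quantile normalization.

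DDX60, a helicase that assists RNA sensing, had a mean of 4.40 at 8 h and 5.12 at 36 h. It rose by 0.73 ± 0.12 (adjusted p = 0.0155), by 0.92 in GM10854, 0.70 in both GM07019 and GM07348, and 0.58 in GM12878. Its close relative DDX60L rose by 0.65 ± 0.13 (adjusted p = 0.0414). Whether the probes of these relatives share sequence was not tested, and both stood below the lowest array median at 8 h. IFI44L, among the most abundant genes of the list, went from 9.14 to 9.76, a rise of 0.62 ± 0.10 (adjusted p = 0.0129) with line values of 0.74, 0.79, 0.54 and 0.40. EPSTI1 rose by 0.57 ± 0.10 (adjusted p = 0.0298), and OAS3, which makes the oligoadenylate signal for an antiviral RNase, by 0.56 ± 0.11 (adjusted p = 0.0414). IFIT1, which binds foreign capped RNA, rose by 0.55 ± 0.09 (adjusted p = 0.0121), within 0.42 to 0.70 in every line. The RNA sensor IFIH1, also called MDA5, rose by 0.55 ± 0.11 (adjusted p = 0.0432). XAF1 and the antiviral enzyme RSAD2 completed the 9 at 0.46 ± 0.09 and 0.45 ± 0.09. Other members had small values, with 0.14 ± 0.09 for ISG15 (adjusted p = 0.764), 0.05 ± 0.08 for IRF9 and 0.00478 for IRF7. Outside the list GBP4, an interferon-inducible GTPase, rose by 0.52 ± 0.10 and TLR7, the endosomal receptor for single-stranded RNA, by 0.46 ± 0.09. The 8 h means of EPSTI1, RSAD2 and GBP4 also lay below the lowest array median.

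The promoters of several of these genes hold the core of an interferon response element. RefSeq windows of the GRCh38.p14 assembly were searched on both strands over the 250 bases before each start site, and 41 of the 54 rising genes had a window. The pattern GAAACNGAA was found in 1.58% of 35116 windows and in at least 1 window of 265 of 14239 tested genes, 1.86%. It was found for 11 of the 41 rising genes, 26.8%, and for 12 of 22 interferon-stimulated genes. Here and for the patterns below, a gene counts if any of its windows holds the pattern, and the first window with a match is shown. Where a gene has other start sites, their windows may lack it. A match describes these letters and not a bound site. The stretches below carry the match or its reverse complement in capitals and are written 5′ to 3′ along the gene, shown for 5 interferon-stimulated genes that rose and for CD274, TNFSF10, CD38 and STS, which rose outside that list. DDX60L and RSAD2 also rose and hold the pattern.
IFIT1, chr10:89392491-89392559, plus strand: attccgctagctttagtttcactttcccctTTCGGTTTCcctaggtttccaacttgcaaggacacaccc
DDX60, chr4:168318767-168318870, minus strand: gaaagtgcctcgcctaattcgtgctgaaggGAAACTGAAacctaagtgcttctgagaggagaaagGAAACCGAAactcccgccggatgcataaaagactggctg
EPSTI1, chr13:42992253-42992321, minus strand: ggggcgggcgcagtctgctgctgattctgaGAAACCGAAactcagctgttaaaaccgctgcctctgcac
OAS3, chr12:112938301-112938369, plus strand: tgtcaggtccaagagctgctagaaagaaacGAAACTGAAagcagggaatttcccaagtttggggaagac
IFIH1, chr2:162318685-162318866, minus strand: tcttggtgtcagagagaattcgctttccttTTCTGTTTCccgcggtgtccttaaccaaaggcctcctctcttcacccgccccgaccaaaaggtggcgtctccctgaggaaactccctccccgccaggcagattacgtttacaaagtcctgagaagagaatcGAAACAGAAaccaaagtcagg
CD274, chr9:5450311-5450379, plus strand: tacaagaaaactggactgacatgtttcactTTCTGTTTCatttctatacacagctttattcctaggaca
TNFSF10, chr3:172523578-172523646, minus strand: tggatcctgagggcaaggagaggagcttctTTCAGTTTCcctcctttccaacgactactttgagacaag
CD38, chr4:15778281-15778327, plus strand: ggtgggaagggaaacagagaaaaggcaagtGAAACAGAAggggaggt
STS, chrX:7252138-7252206, plus strand: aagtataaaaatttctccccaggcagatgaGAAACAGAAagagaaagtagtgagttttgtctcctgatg

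DDX60 and IFIH1 each have 2 matches in these stretches. The other stretches hold a single match. Its first base lay 17 bases before the start site of the window shown in CD38, 50 in EPSTI1, 76 in STS and 102 in IFIT1. It lay 143 bases before in OAS3, 186 in TNFSF10 and 201 in CD274. CD38 and STS, which led all rises, hold this pattern in at least 1 window, as do 12 of the 22 interferon-stimulated genes with a window. Whether it acts in CD38 or STS was not tested. Direct repeats of AGGTCA with 3 bases between, the arrangement VDR and its partner bind, were found for 0 of the 41 genes and in 2 of all 35116 windows. Repeats of the variant GGTTCA were likewise found for 0 of the 41 and in 2 windows, and repeats of AGTTCA in 0 windows. Such repeats were too rare in these windows for their absence from the 41 genes to say anything of VDR.

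Some genes of cholesterol and fatty acid synthesis rose as well. They answer the SREBP factors, which are cut free when membrane sterol is low and bind promoters beside the factor NF-Y at CCAAT boxes. Of 16 cholesterol genes 3 rose and 0 fell, all 16 had a mean above 0, and 13 were higher in 4 of 4 lines, beside 0.277% of all probe sets that rose and 10.3% higher in every line. The count was 1 without GM10854 and 1 without GM12878. Their median was 0.32, and from 0 h to 8 h it was -0.00142. INSIG1, which holds SREBP in the endoplasmic reticulum and is itself an SREBP target, rose by 0.63 ± 0.08 (adjusted p = 0.00144). Its line changes were 0.51, 0.65, 0.52 and 0.83, with no overlap between 8 h and 36 h. HMGCS1, the synthase at the head of the pathway, rose from 8.42 to 8.95 by 0.53 ± 0.09 (adjusted p = 0.0216). DHCR7, which makes cholesterol from 7-dehydrocholesterol, the precursor of vitamin D itself, rose by 0.47 ± 0.09 (adjusted p = 0.0298). CYP51A1 had 0.40 ± 0.09 (adjusted p = 0.0655), LSS 0.37 ± 0.08 (adjusted p = 0.0764) and SQLE 0.33 ± 0.08 (adjusted p = 0.139). GM12878 had the largest and GM07019 the smallest median change of the list, 0.41 and 0.18.

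Of 18 genes of fatty acid synthesis and lipid handling 3 rose, beside 0.277% of all probe sets, with a median of 0.27. The count was 0 without GM10854, 0 without GM12878, 1 without GM07348 and 1 after quantile normalization. All 3 put double bonds into fatty acids. SCD, which makes oleate, stood at 7.92 at 8 h and 8.57 at 36 h, and rose by 0.66 ± 0.11 (adjusted p = 0.015), with line changes of 0.54, 0.66, 0.57 and 0.86. FADS1 and FADS2, neighbouring genes of the desaturases of polyunsaturated fatty acids, rose by 0.46 ± 0.09 and 0.43 ± 0.08, each at an adjusted p of 0.0298. The elongase ELOVL6 had 0.55 ± 0.12 (adjusted p = 0.0619) and FASN, the fatty acid synthase, 0.31 ± 0.09 (adjusted p = 0.226). FAR2, which reduces fatty acids to alcohols, rose by 0.38 ± 0.08 outside the list, the smallest rise that passed.

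CCAAT on either strand was in 32.0% of windows and for 40.4% of the tested genes. It was found for 13 of the 15 cholesterol genes with a window and for 6 of 17 fatty acid genes. Among the 41 rising genes it was found for 16, 39.0%, with CD38 and STS among them. CACCCCAC, part of a sterol response pattern, was found for 1 of the 15 cholesterol genes, SREBF2, which was not among the rises. It was found for 1 of the 41 rising genes, BNIP3, 2.44%, beside 3.41% of the tested genes. The stretches of the cholesterol genes that rose are shown with CCAAT or its reverse complement in capitals.
INSIG1, chr7:155297678-155297742, plus strand: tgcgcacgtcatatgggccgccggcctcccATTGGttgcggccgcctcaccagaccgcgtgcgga
HMGCS1, chr5:43313478-43313597, minus strand: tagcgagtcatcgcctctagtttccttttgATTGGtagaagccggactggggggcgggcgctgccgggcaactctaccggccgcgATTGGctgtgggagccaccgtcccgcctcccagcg
DHCR7, chr11:71448407-71448517, minus strand: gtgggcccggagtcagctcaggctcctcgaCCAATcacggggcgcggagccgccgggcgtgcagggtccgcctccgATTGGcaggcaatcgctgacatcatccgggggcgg

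With 6 rises and 0 falls of 24, beside 0.277% rises over all probe sets, NF-kB targets and inflammatory genes made up the next group. Their median was 0.21, beside 0.000835 over all probe sets. These genes answer NF-kB, which the viral protein LMP1 keeps active in lymphoblastoid lines, and several of their products restrain it. The chemokine CCL4 stood at 4.29, 5.32, 4.63 and 4.38 at 8 h and at 5.27, 5.95, 5.33 and 5.18 at 36 h. GM07348 at 8 h lay within the range of the 36 h lines, so the groups overlapped. Every line rose, and the mean change was 0.78 ± 0.09 (adjusted p = 0.000656). CCL3, its neighbour in the genome, rose by 0.50 ± 0.09 (adjusted p = 0.0228). CCL22, which draws regulatory and helper T cells, rose by 0.67 ± 0.12 (adjusted p = 0.0298), by 0.75, 1.04 and 0.79 in the first 3 lines and by 0.09 in GM12878. The inhibitors NFKBIA and TNFAIP3, which hold NF-kB back, rose by 0.54 ± 0.09 (adjusted p = 0.0132) and 0.47 ± 0.09 (adjusted p = 0.043), and the subunit NFKB2 by 0.42 ± 0.08 (adjusted p = 0.0338). The kinase RIPK2, which signals to NF-kB, rose by 0.51 ± 0.10 outside the list. Of the 24, 2 passed without GM07348, 1 without GM10854 and 2 without GM12878, against 3 without GM07019.

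The pattern GGGACTTTC, most of an NF-kB site, was in 0.325% of windows and for 65 of the tested genes, 0.456%. Among the 41 rising genes it was found for TNFAIP3 and NFKB2, which are shown with the match or its reverse complement in capitals.
TNFAIP3, chr6:137867163-137867231, plus strand: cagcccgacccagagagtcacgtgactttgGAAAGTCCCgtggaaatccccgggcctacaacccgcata
NFKB2, chr10:102395654-102395704, plus strand: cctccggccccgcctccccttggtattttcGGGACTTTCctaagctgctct

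Some ligands that B cells show to T cells rose as well. Of 15 genes of costimulation and adhesion 2 passed, beside 0.277% of all probe sets that rose. The median was 0.31, beside 0.000835 over all probe sets. Of the 15, 10 were higher in 4 of 4 lines, beside 10.3% of all. CD274, the checkpoint ligand PD-L1, rose by 0.53 ± 0.10 (adjusted p = 0.0338), most in GM10854 at 0.89, and had an adjusted p of 0.246 without that line. TNFSF4, the OX40 ligand, rose by 0.52 ± 0.09 (adjusted p = 0.0216). SLAMF1 had 0.45 ± 0.10 (adjusted p = 0.0619), ICAM1 0.39 ± 0.09 (adjusted p = 0.0941) and CD80 0.34 ± 0.08 (adjusted p = 0.133). Outside the list TNFSF10, the death ligand TRAIL, rose by 0.50 ± 0.09 (adjusted p = 0.0304). Lymphotoxin, LTA, passed on 1 probe set at 0.48 ± 0.09 (adjusted p = 0.038) and missed on 2 others at 0.42 ± 0.09 (adjusted p = 0.0505) and 0.51 ± 0.11 (adjusted p = 0.0537). MHC class II genes, which present antigen, had 0 of 9 passing, a median of 0.04 and 0.30 ± 0.09 for the protease CTSS and 0.14 ± 0.08 for HLA-DPA1 as the largest values.

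The remaining rises belonged to varied pathways. GLUL, glutamine synthetase, rose by 0.63 ± 0.12 (adjusted p = 0.0338) on 1 probe set, but a second one had 0.24 ± 0.20 (adjusted p = 0.816) and fell in GM10854 by 0.82, so its rise is uncertain. SAT1, which breaks down polyamines, rose by 0.56 ± 0.09 (adjusted p = 0.015) from 6.96 to 7.51 without overlap of the lines. BNIP3, a mitophagy protein induced by low oxygen, rose by 0.47 ± 0.09 (adjusted p = 0.038). It was the only one of 24 hypoxia and glycolysis genes to pass. That list had a median of 0.14. HIVEP2, a zinc finger factor, rose by 0.49 ± 0.10, the Ets factor ETV5 by 0.45 ± 0.09 and the granule proteoglycan SRGN by 0.42 ± 0.08. DENND6B, a regulator of Rab GTPases, rose by 0.51 ± 0.10 after 0.40 ± 0.10 from 0 h to 8 h (adjusted p = 0.581). BIVM, SFT2D1, TMEM135 and the lysosomal protease CTSZ rose by 0.52, 0.47, 0.43 and 0.39. Among 15 small nucleolar RNAs of the SNORD115 and SNORD116 clusters, which are near-identical copies, SNORD115-44 passed at 0.79 ± 0.16 (adjusted p = 0.0432), and outside that list SNORD115-40 passed at 0.53 ± 0.10 from a level of 1.52.

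NQO1, a quinone reductase of the oxidative stress response, was the only gene that fell. Its 8 h mean of 6.78 became 6.33, a change of -0.45 ± 0.09 (adjusted p = 0.0491). The line changes were -0.66, -0.40, -0.20 and -0.54, the lines overlapped between the times, and the call was absent without any 1 of the 4 lines.

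**Figure D3:**
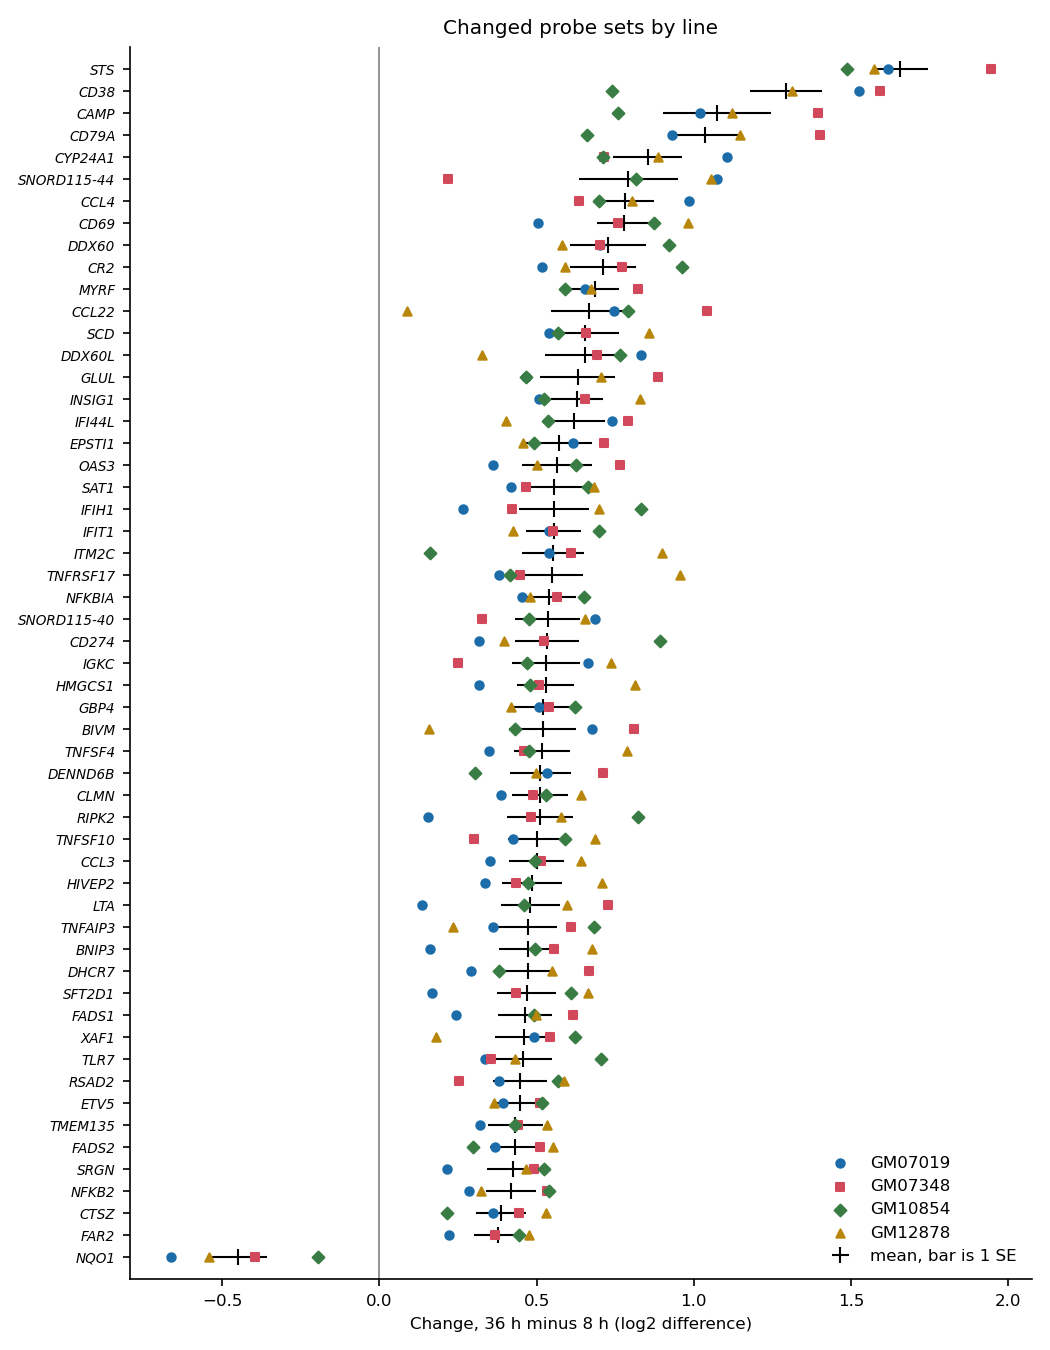
Change from 8 h to 36 h (log2 difference, horizontal) of the 55 probe sets that passed the test, 1 row each with the gene named, for GM07019, GM07348, GM10854 and GM12878 (coloured points) and their mean with 1 standard error (black). All points of the 54 rises lie right of 0, and CCL22 in GM12878 at 0.09 comes nearest to it.

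Genes of proliferation and of stress gave no calls. Of 28 genes of DNA replication 0 passed, with a median of 0.03. The highest values were 0.14 ± 0.09 for UHRF1, whose other probe set had -0.20, and 0.12 ± 0.09 for MCM3. The lowest was -0.13 for TK1. Of 31 mitotic genes 0 passed, with a median of -0.02. Their median change was 0.12 in GM10854, 0.06 in GM12878, -0.10 in GM07348 and -0.22 in GM07019, so the lines pointed in different directions. The mitotic genes with the largest change were cyclin B1, CCNB1, at -0.16 ± 0.10 and CDC20 at -0.15 ± 0.09. None passed among 22 replication-dependent histones (H4C4 at 0.26 ± 0.16 and H3C7 at 0.25 ± 0.13). Nor did any of 24 growth arrest and p53 target genes (PMAIP1 at 0.31 ± 0.10, CDKN1B at 0.28 ± 0.09 and SESN3 at -0.28). None passed among 14 BCL2 family genes (PMAIP1, and BCL2A1 at 0.29 ± 0.13). The same held for 27 genes of the unfolded protein response and amino acid shortage (SLC7A11 at 0.26 ± 0.11 and ATF4 at 0.24 ± 0.09) and 25 immediate early and heat shock genes (JUNB at 0.33 ± 0.09 and MYC at 0.26 ± 0.08). It held for 19 ribosome biogenesis genes (NOLC1 at 0.21 ± 0.09 and LYAR at 0.18 ± 0.11) and 16 genes of chemokine receptors and migration (RGS1 at 0.51 ± 0.14 and CXCR4 at 0.45 ± 0.11). Of 31 genes at autoimmune disease loci, TNFSF4 and TNFAIP3 passed, beside 0.277% of all probe sets that rose. STS was the only call among 22 steroid-converting enzymes, where CYP1B1 had -0.31 ± 0.09 (adjusted p = 0.226). CD38 was the only one of 15 NAD enzymes, where BST1, its relative, had 0.09 ± 0.08.

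No marker of another cell type passed. Of 11 B cell markers 2 rose, CD79A and CR2, beside 0.277% of all probe sets. The median change of the 11 was 0.23. The 16 markers of T and NK cells had a median 8 h level of 4.68, the 10 of monocytes 4.97, the 9 of granulocytes 4.64, the 12 of fibroblasts 4.61, the 9 of hepatocytes 3.98 and the 6 of erythroid cells 5.04, each below the lowest array median. The highest single marker was TFRC of the erythroid list at 9.59, a transferrin receptor that dividing cells also carry. The part of other cells in the results was not tested. The largest changes in these lists were -0.20 ± 0.08 for CD4 and -0.18 for PRF1 in T and NK cells, -0.19 ± 0.08 for CD14 and 0.11 for S100A8 in monocytes, and -0.35 for MMP8 and -0.20 for ELANE in granulocytes. They were 0.17 for FN1 and -0.12 for DCN in fibroblasts, -0.14 for APOB and -0.13 for APOA1 in hepatocytes, and -0.19 for ALAS2 and 0.12 for HBB in erythroid cells.

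**Figure D4:**
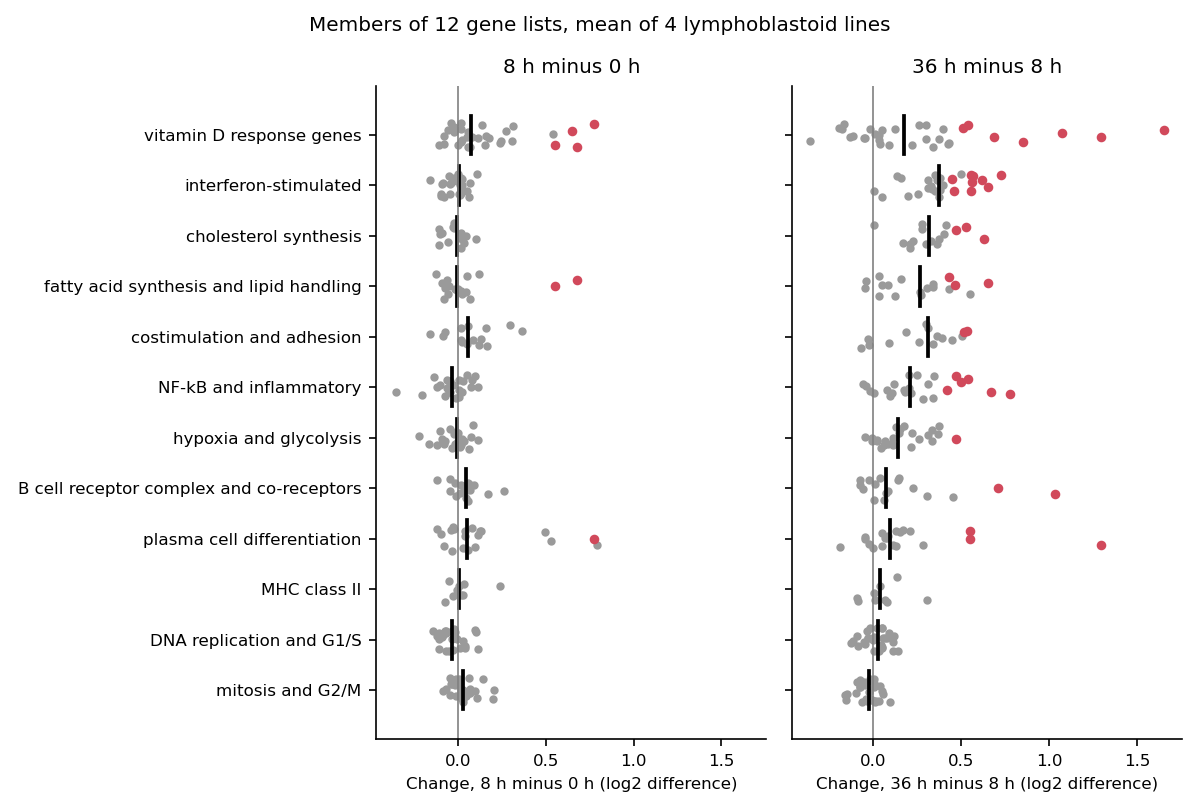
Changes (log2 difference, horizontal) of the members of 12 gene lists from 0 h to 8 h (left) and from 8 h to 36 h (right), with 1 point for each gene as the mean of 4 lines, red where the adjusted p was below 0.05, and a black bar at the median of the list. The interferon-stimulated list had a median of 0.00526 in the left panel and 0.37 in the right, and the cholesterol list -0.00142 and 0.32.

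Most of the late rises had small changes in the first 8 h. The 54 were chosen for a rise after 8 h, which favours low 8 h values. Small early changes are thus partly a result of that choice. The changes in both intervals use the same 8 h arrays, so they are given side by side and not as independent measures. From 0 h to 8 h the 54 genes had a median change of 0.03 and a range of -0.22 to 0.78, with 35 of them above 0. TNFRSF17 had 0.53 ± 0.10 and ITM2C 0.50 ± 0.10, close to their late changes, without passing (limma, adjusted p = 0.109 and 0.17). CD38 and CLMN were the 2 that passed. Over all probe sets 5 rose (0.0257%) and 0 fell in that interval (limma, 616 at an unadjusted p below 0.05), the other 3 being ABCD2, ACSL1 and ZNF589, with late changes of 0.34, 0.43 and 0.35 that did not pass. ABCD2, a peroxisomal transporter of very long fatty acids, had its larger step early, 0.68 ± 0.10 (adjusted p = 0.0271). From 0 h to 36 h 48 of the 54 passed, in a comparison where 207 probe sets rose, 1.06%.

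The 4 lines were then compared with each other. A test for unequal late changes between the lines, on single arrays, called 0 of 19460 probe sets (limma, 0% called, 721 at an unadjusted p below 0.05). Leaving out GM07019 gave 1 and leaving out GM12878 gave 3. The smallest adjusted p was 0.08, for LYRM9 on 2 probe sets with the same values, a low-level gene with changes of -0.44, -1.12, 1.10 and 0.34. Next came TOM1L1, with changes of -0.21, 0.76, -0.82 and -0.52, the small RNA RNY1, with -0.84, -0.87, 0.92 and -0.55, and the probe set of GLUL that fell in GM10854. This does not show that the lines changed alike.

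In single lines, where 2 arrays were compared with 2, few genes passed. In GM07019 there were 3 rises (0.0154%), STS, CAMP and CD38. In GM07348 there were 7 (0.036%), STS, CAMP, CD79A, CD38, IL17RB, MYRF and DENND6B, of which the cytokine receptor IL17RB had 0.84 ± 0.15 (adjusted p = 0.0432). In GM10854 STS was the 1 rise (0.00514%). In GM12878 there were 9 (0.0462%), STS, CAMP, CD79A, ITM2C, CD38, TNFRSF17, BCL2A1, IGKC and TENT5C. The IGKC probe set here is another than the one that passed over the 4 lines, which had an adjusted p of 0.2995 in GM12878. BCL2A1, an NF-kB target that protects from apoptosis, rose there by 1.005 ± 0.19 and TENT5C, a poly(A) polymerase of plasma cells, by 1.01 ± 0.19, beside -0.12 to 0.20 for BCL2A1 and -0.11 to 0.34 for TENT5C in the other lines. GM12878 gave the largest of the 4 line changes for 20 of the 54 rises and GM07019 the smallest for 27. These counts were not made over all probe sets. The standard deviation of the changes over all probe sets was also smallest in GM07019, at 0.168. It was 0.191 in GM07348, 0.213 in GM10854 and 0.206 in GM12878.

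The late change was also set against that of the 5 other lines, again with the line as replicate. Of 19460 probe sets 2 differed (0.0103%), STS and MYRF, both higher in the lymphoblastoid lines. STS rose by 1.66 in these and by 0.23 in the others, where the values ran from 0.04 in HEP-G2 to 0.36 in Ag09309. The difference was 1.43 ± 0.15 (adjusted p = 6.85e-05). MYRF changed by 0.68 against -0.09, a difference of 0.77 ± 0.12 (adjusted p = 0.0249). Among the other lines HL60 was the highest at 0.22. The difference in MYRF had an adjusted p of 0.0792 to 0.359 when any 1 of the lines other than HL60 was left out, and STS passed each time. The arrays of Ag09319 at 8 h correlated at only 0.897, and without this line the differences were 1.43 for STS (adjusted p = 5.86e-05) and 0.70 for MYRF (adjusted p = 0.0884).

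For 13 of the 54 rises, 24.1%, every lymphoblastoid line changed more than every other line, beside 0.853% of all probe sets. The members were chosen for a high change in the lymphoblastoid lines, so this share is a description. Beyond STS and MYRF they included CD38, CAMP, CD79A, CR2, OAS3, CCL3, CCL4, GBP4, NFKBIA, TLR7 and TNFRSF17. CD38 changed by 0.33 in the other lines on average, within 0.08 to 0.49, a difference of 0.96 ± 0.37 that did not pass (adjusted p = 0.867). CYP24A1 ran the other way, with a mean rise of 1.97 in the other lines, from -0.51 in HEP-G2 to 3.08 in Ag09319, a difference of -1.12 ± 0.79 (adjusted p = 0.905). Of the 6 lipid genes that rose in the lymphoblastoid lines, all were lower at 36 h in HEP-G2, from -0.06 for SCD to -0.86 for FADS2, and all were higher in Ag09309, Ag09319 and K562. HL60 had values from -0.30 for DHCR7 to 0.30 for FADS1. No rise was tested in the other lines alone. The mean differences between the 4 lymphoblastoid and the 5 other lines were 0.10 ± 0.20 for SCD, 0.15 ± 0.25 for INSIG1, -0.07 ± 0.27 for HMGCS1, 0.24 ± 0.18 for DHCR7, 0.04 ± 0.22 for FADS1 and 0.35 ± 0.20 for FADS2. None passed (limma, adjusted p of 0.897 to 0.989). DDX60L had 0.65 and 0.61, with 1.91 in Ag09319. These standard errors are wide, and such p-values do not show that the lines change alike.

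**Figure D5:**
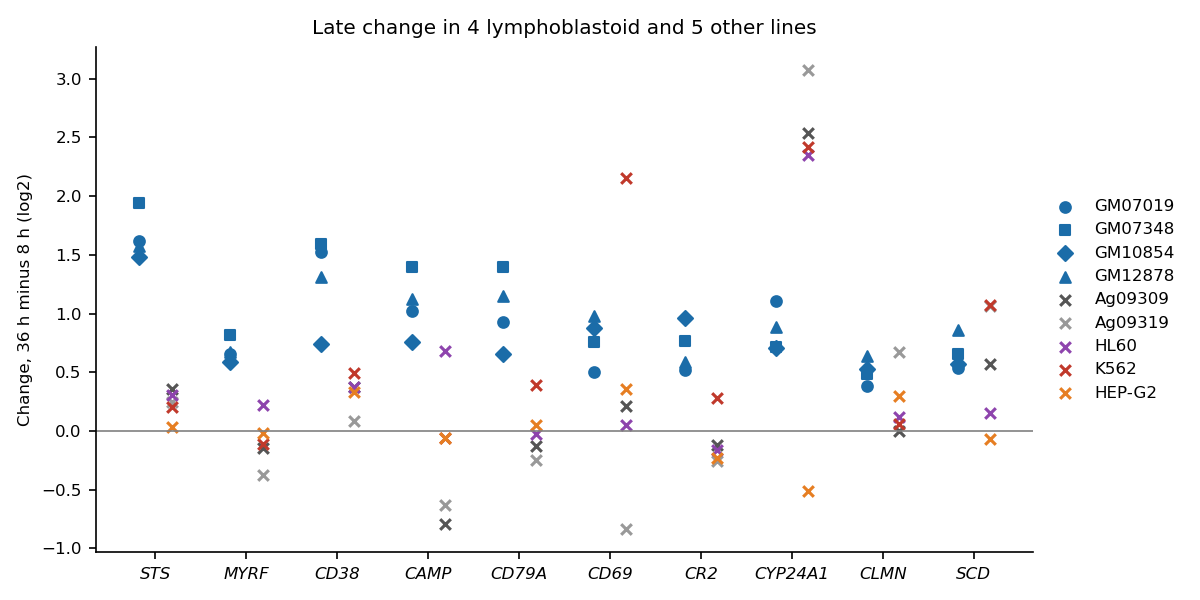
Change from 8 h to 36 h (log2 difference, vertical) of 10 genes, with 1 blue symbol for each of the 4 lymphoblastoid lines and 1 cross for each of the 5 other lines. STS lies between 1.49 and 1.94 in the lymphoblastoid lines and at or below 0.36 in the others, while CYP24A1 reaches 3.08 in Ag09319.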

How the data were processed

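Total RNA was labelled with the Affymetrix whole-transcript protocol and hybridised to Gene 1.0 ST arrays, per the labels' protocols. The authors deposited log2 values made with Expression Console 1.0 by RMA (background correction, quantile normalization and probe summary), per the submitters' processing notes. The sources used here do not say whether RMA was run on all arrays at once.

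Of 33297 probe sets, 21214 were in the platform annotation, and the 19460 with 1 symbol were tested. The 1754 with several were left out. Gene IDs of 19429 matched RefSeq. No detection filter was used. The 2 arrays of each line and time were averaged, and limma 3.58.1 (R 4.3.3) fitted time and line to the 12 averages of the 4 lines at 0, 8 and 36 h. The difference of 36 h from 8 h was tested with Benjamini-Hochberg adjustment and a threshold of 0.05. Single lines and their differences were fitted on single arrays, and the other lines with the line as replicate. Replicate numbers were checked as pairs. Deviations of same-numbered arrays at 8 h and 36 h correlated at 0.343 in GM07348, 0.308 in GM12878, 0.0963 in GM10854 and -0.332 in GM07019, so the numbers were not taken to pair the arrays. Scripts were tested on simulated data.

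Genes were named by rule: CD38, STS and CYP24A1, the 20 largest rises and falls that passed with all 4 lines in one direction, per list the 4 largest that passed or, where none passed, the 2 largest, the 5 smallest p for unequal lines, and genes called between lymphoblastoid and other lines. Further genes were named after their values were seen. The members and the 32 lists were chosen with earlier results of these data known. Where a list has several probe sets of a gene, 1 stands for it. RefSeq promoter windows are of GRCh38.p14. Alternatives covered scaling, filters, the samples in the fit, arrays as replicates and leaving out each line or array set.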

Additional observations from a re-analysis of the deposited data

Results flagged for a closer look

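TNFRSF17, the BCMA receptor of plasma cells, rose from 8 h to 36 h by 0.956 (log2) in GM12878, far from the other 3 lymphoblastoid lines at 0.38, 0.45 and 0.42. A test for unequal changes over the 4 lines did not pass for it (limma, adjusted p = 1, unadjusted p = 0.0826). Chance sets apart about 1 in 20 such groups of 4 lines. All 55 probe sets that passed were screened in this way, and TNFRSF17 was the only one set apart. The late change of STS was 1.43 higher in the 4 lymphoblastoid lines than in the 5 other lines by a test of the difference itself, and that of MYRF 0.77 higher.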

How the results depend on the processing

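The main count was 54 higher and 1 lower at 36 h. It was 18 higher after quantile normalization, 0 lower with arrays centred on the median, 87 higher and 3 lower with only the 8 h and 36 h averages, and 3 and 0 with all 9 lines. It was 149 and 7 with arrays as replicates, 83 and 3 among probe sets at or above the median level, 9 and 0 over all probe sets of the table, and 91 and 2 with a trend and robust variance. Leaving out 1 line or 1 array set gave 5 to 112 higher and 0 to 34 lower, and the share higher was 76.7% without replicate 2 against 98.2%. With the replicate number as a block, 179 were higher and 10 lower, and the single lines had 11 calls in GM07348, 13 in GM10854 and 15 in GM12878. After quantile normalization GM10854 had 5 and GM12878 had 5. Probe sets whose change differed between the lines numbered 0 to 3 when 1 line was left out. The difference from other lines had 1 call among probe sets at or above the median level, where STS was not tested, and 1 to 3 without 1 line. Over the named genes 359 values lost their call and 65 gained one. Among genes that passed in the main fit 0 values reversed direction. Some named genes that had not passed did change sign, such as TK1, which ran from -0.32 to 0.0636 over the alternatives. The cause was not tested. Of the 54 rises, 13 started below the lowest array median at 8 h, where background limits the size of a change. They include CYP24A1, CCL4, DDX60, DDX60L, EPSTI1, RSAD2 and GBP4, and STS, whose 8 h mean lay just below that median.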
